A study of Mus musculus with 120 samples.

Results

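Bdnf, Vgf, Scg2, Nrn1, Inhba, Ptprn and Ntrk2 are 7 mouse genes for signals that neurons release or carry on their surface, for the granules that carry such signals, and for a receptor that reads them. They were picked by gene symbol from the 49466 genes with a value in the deposited expression tables. Each had 1 row in all 120 libraries, and all 7 passed the filter on low values (a mean of at least 10 reads per library compared) in every comparison. The libraries were made from polyadenylated RNA of cortex, thalamus and hypothalamus of C57BL/6J mice, in 30 groups of 4 biological replicates. No source used here gives the age of the mice.

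All mice had been injected retro-orbitally with an AAV (adeno-associated virus), 3 weeks ahead of dissection, so every control carries a virus as well. The virus expressed HDAC4CA, which is a form of HDAC4, a histone deacetylase, or it expressed CREB, a transcription factor. Controls received a fluorescent protein, mCherry or eGFP. The genotypes were wild type (WT) and Sleepy (Sik3E13∆/+), which carry 1 copy of a Sik3 allele lacking exon 13. WT mice with HDAC4CA, CREB or mCherry were dissected at ZT12.5, that is 12.5 h after lights on and just after lights off, and their values are RPKM (reads per kilobase of gene, scaled to the library's reads). Sleepy mice with HDAC4CA or eGFP and WT mice with eGFP were dissected at ZT12.5 and at ZT0.5, just after lights on, and Sleepy mice with CREB at ZT12.5 only. Their values are FPKM, the same scale for fragments. RPKM and FPKM libraries were not compared with each other. The sources used here do not name the promoter or the cells that expressed the viral genes, and the values come from whole tissue, so fewer cells of a type and less RNA per cell cannot be told apart.

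Bdnf encodes brain-derived neurotrophic factor, a secreted protein that binds the receptor tyrosine kinase TrkB, the product of Ntrk2, and strengthens synapses. Inhba encodes the activin A subunit, a ligand of the TGF-beta family, and Nrn1 encodes neuritin, a membrane-anchored protein that promotes neurite growth. Vgf and Scg2 (secretogranin II) encode proteins of dense-core granules that are cut into peptides, and Ptprn encodes IA-2, a transmembrane protein of the granule membrane. Transcription of Bdnf, Inhba, Nrn1, Vgf and Scg2 in neurons is induced by synaptic activity and calcium, in part through CREB bound to cAMP response elements (CRE). Class IIa histone deacetylases such as HDAC4 enter the nucleus when dephosphorylated and repress MEF2 targets, and salt-inducible kinases such as SIK3 keep them in the cytoplasm.

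In GRCm38 (GENCODE M21) Bdnf lies at chr2:109674700-109727007 on the plus strand and Vgf at chr5:137026392-137033351 on the plus strand. Scg2 lies at chr1:79434669-79440120 and Ptprn at chr1:75247027-75264502, both on the minus strand. Chromosome 13 holds Nrn1 at chr13:36725361-36735131 on the minus strand, Inhba at chr13:16011851-16031621 and Ntrk2 at chr13:58806569-59133970, both on the plus strand. Exons of 3 members overlap exons of a gene on the other strand, namely Gm45346 for Bdnf, Fars2 for Nrn1 and Gm28294 for Ptprn. No source used here says whether counting took account of strand, so these pairs may share reads.

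RefSeq promoter windows of 300 bases (250 before and 50 after the start, GRCm38.p6) were at hand for 5 of the 7 genes, 12 windows in all, 7 of them for Bdnf. There was none for Vgf or Nrn1. Each window was searched on both strands for the CRE TGACGTCA, for its core TGACG, which the full CRE holds on each strand, for the MEF2 core, CTA and TAG parted by 4 bases of any kind, for the serum response element (SRE) and for the EGR site GCGNGGGCG. Scg2 had the full CRE with its first base 68 bases before the start. The core alone was found in 1 of 2 Ptprn windows, 117 and 80 bases before the start, and in 1 of 7 Bdnf windows, 35 bases before the start. Of all 32851 windows, 1.79% held the CRE, 20.8% the core, 3.69% the MEF2 core, 1.63% the SRE and 5.55% the EGR site. No member window held the last 3, which says only that these letters are not in these windows. The 3 windows with a match are shown here, since CREB is one of the delivered factors. They run from 250 bases before the start to the start, 5′ to 3′ on the gene's strand, with the CRE or its core (CGTCA where it lies on the other strand) in capitals. They cover chr1:79440027-79440276 for Scg2, chr1:75264209-75264458 for Ptprn and chr2:109692186-109692435 for Bdnf.
Scg2: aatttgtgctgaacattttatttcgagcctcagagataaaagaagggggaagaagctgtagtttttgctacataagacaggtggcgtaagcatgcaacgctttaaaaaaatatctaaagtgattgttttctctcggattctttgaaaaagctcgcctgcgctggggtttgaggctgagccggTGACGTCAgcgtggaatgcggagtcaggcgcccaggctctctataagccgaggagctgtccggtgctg
Ptprn: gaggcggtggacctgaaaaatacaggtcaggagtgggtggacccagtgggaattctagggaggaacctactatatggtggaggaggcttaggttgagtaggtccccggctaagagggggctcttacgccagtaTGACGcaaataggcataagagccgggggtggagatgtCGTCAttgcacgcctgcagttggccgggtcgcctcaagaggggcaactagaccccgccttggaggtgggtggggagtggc
Bdnf: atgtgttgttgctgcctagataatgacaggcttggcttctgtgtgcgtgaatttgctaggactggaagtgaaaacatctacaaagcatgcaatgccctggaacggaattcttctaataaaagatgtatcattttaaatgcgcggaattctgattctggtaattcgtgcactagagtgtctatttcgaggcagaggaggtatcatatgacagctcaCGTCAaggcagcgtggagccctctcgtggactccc

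The libraries held 13.52 to 28.16 M reads, as recovered from the step between low values. The members rest on very different numbers of recovered reads, with about 19 to 2178 per library for Inhba and 55 to 2767 for Bdnf. Nrn1 had about 316 to 4772, and Vgf, Scg2, Ptprn and Ntrk2 had 868 or more. For Bdnf, Vgf, Scg2 and Ptprn these came out whole to within 0.1 in 120 of 120 libraries. For Inhba, Ntrk2 and Nrn1 they did so in only 35, 27 and 20. The reads of Inhba, Ntrk2 and Nrn1, also those given to voom, are therefore approximate. Hdac4 was higher in 9 of 9 comparisons of HDAC4CA with its control (1.70- to 3.68-fold). Creb1 was higher in 5 of 6 of CREB (1.88- to 7.15-fold) and did not pass in WT hypothalamus (1.39-fold, adjusted p = 0.13). Sik3 was called in 0 of 6 comparisons of Sleepy with WT (fold 0.934 to 1.05). Hypothalamus markers summed to 448 to 742 in hypothalamus libraries, 6.44 to 185 in thalamus and 1.40 to 13.2 in cortex. Among the RPKM libraries, 27 had low levels of 79 ribosomal protein genes, namely replicate 4 of each WT cortex group and all of thalamus and hypothalamus. In comparisons within a region this split lies inside the groups only in WT cortex, where every group has 1 such library. The WT tests of thalamus minus cortex also cross it.

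The first question was where the genes are expressed in control mice. In WT mice with eGFP the 7 genes had distinct regional patterns: Scg2 was highest in hypothalamus, Nrn1 lowest there, Bdnf lowest in thalamus, Inhba highest in cortex, and Ntrk2 was higher in hypothalamus than in cortex and thalamus. At ZT12.5 in cortex the mean level per length was highest for Ptprn (51.7 FPKM), followed by Vgf (37.6), Nrn1 (36.2), Scg2 (25.9) and Ntrk2 (24.4), with Bdnf at 1.79 and Inhba at 0.972 FPKM. In this order the ranges of the neighbours Ptprn and Vgf, Vgf and Nrn1, Scg2 and Ntrk2, and Bdnf and Inhba overlapped, and those of Nrn1 and Scg2 did not. The 7 genes were tested between regions in 1 fit over 12 libraries per time, and 32 of 42 values were called at an adjusted p under 0.05 (limma, Benjamini-Hochberg over all genes). The background is high: at ZT0.5 46.1% of all genes were called between cortex and thalamus, 39.7% between hypothalamus and thalamus and 51.7% between cortex and hypothalamus, and at ZT12.5 51.7%, 55.0% and 57.7%.

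Scg2 had 27.1, 24.1, 28.1 and 24.1 FPKM in cortex, 178, 163, 208 and 198 FPKM in hypothalamus and 46.8, 50.2, 44.3 and 43.2 FPKM in thalamus at ZT12.5. The 3 regions did not overlap. In cortex Scg2 was 5.16-fold lower than in hypothalamus at ZT12.5 (log2 difference -2.37 ± 0.07 SE, adjusted p = 1.2e-11) and 4.25-fold lower at ZT0.5 (-2.09 ± 0.09, 4.9e-10). Nrn1 ran the other way, with 34.3, 33.5, 40 and 37.2 FPKM in cortex, 12.3, 10.3, 13.0 and 14.5 FPKM in hypothalamus and 32.0, 31.6, 32.0 and 35.6 FPKM in thalamus. Cortex and thalamus overlapped for Nrn1, and every hypothalamus library lay below both. Nrn1 was 4.03-fold higher in cortex than in hypothalamus (log2 difference 2.01 ± 0.07, adjusted p = 5.9e-11) at ZT12.5 and 4.76-fold higher at ZT0.5 (2.25 ± 0.06, 4.3e-12). Library values are FPKM as deposited, whereas the folds come after rescaling for composition, so the 2 do not match in size. Over the alternative settings the ZT12.5 difference between cortex and hypothalamus was 1.53 to 2.06 log2 for Nrn1 and -2.85 to -2.32 for Scg2.

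The ligand genes Bdnf and Inhba had the lowest levels of the 7 in all 3 regions. Bdnf had 1.49, 1.26, 2.76 and 1.64 FPKM in cortex, 1.51, 1.24, 2.53 and 1.95 FPKM in hypothalamus and 0.707, 0.507, 0.717 and 0.936 FPKM in thalamus at ZT12.5. Cortex and hypothalamus overlapped and both lay above thalamus. Between cortex and hypothalamus Bdnf was called at ZT0.5 (log2 difference 0.90, adjusted p = 6.4e-05) and not at ZT12.5 (0.43, 0.15). Inhba averaged 0.972 ± 0.292 FPKM (SD) in cortex, 0.468 ± 0.132 FPKM in hypothalamus and 0.477 ± 0.0903 FPKM in thalamus at ZT12.5. The values of hypothalamus and thalamus did not differ beyond their spread for Inhba (log2 difference -0.17, adjusted p = 0.54), and cortex was higher than both (adjusted p = 0.00022 and 0.00079).

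Ntrk2, the BDNF receptor gene, had 24.4 ± 1.39 FPKM (SD) in cortex, 46.6 ± 2.05 FPKM in hypothalamus and 30.8 ± 0.295 FPKM in thalamus at ZT12.5. Ptprn averaged 51.7 ± 4.45 FPKM in cortex, 71.9 ± 7.76 FPKM in hypothalamus and 45.1 ± 1.04 FPKM in thalamus, and Vgf 37.6 ± 10.5, 46.4 ± 15.9 and 29.4 ± 1.54 FPKM. Rescaling for composition (trimmed mean of M values) moved all genes by -0.35 and -0.48 log2 between cortex and hypothalamus at ZT0.5 and ZT12.5, by -0.28 and -0.31 between cortex and thalamus, and by 0.07 and 0.17 between hypothalamus and thalamus, and some calls depend on it. Ptprn did not pass between cortex and hypothalamus (log2 difference -0.07 and 0.01 at ZT0.5 and ZT12.5) but was lower in cortex without rescaling (-0.42 and -0.47, adjusted p = 0.00034 and 6.5e-05). Ntrk2 did not pass between cortex and thalamus (-0.01 and -0.03) but was lower in cortex without rescaling (-0.29 and -0.34, adjusted p = 0.006 and 8.4e-05). For Vgf the sign turned between cortex and hypothalamus at ZT0.5 (0.13 with rescaling, adjusted p = 0.084; -0.22 without, 0.026), and the difference passed without hypothalamus replicate 1 (0.0069). At ZT12.5 it was 0.19 and passed without hypothalamus replicate 3 (0.041). Between hypothalamus and thalamus Vgf did not pass at ZT12.5 (0.43, adjusted p = 0.077). There it passed without cortex replicate 3 (0.04) and without rescaling (0.6, 0.035). The same held with the replicate number as a block (0.0088) and with voom on recovered reads (0.019). At ZT12.5 Vgf and Nrn1 were higher in cortex than in thalamus (0.63 and 0.45 with rescaling, adjusted p = 0.017 and 0.00015), and neither passed without rescaling (0.32 and 0.14).

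**Figure D1:**
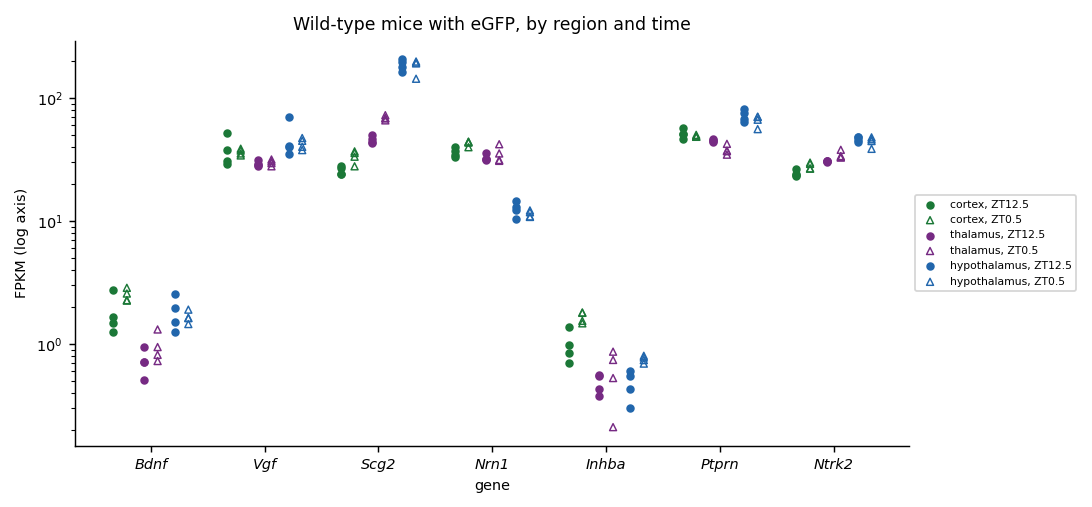
Deposited FPKM of the 7 genes (log axis) in WT mice with eGFP, by region, with filled points for ZT12.5 and open points for ZT0.5; each point is 1 library, 4 per group. Scg2 sits between 163 and 208 FPKM in hypothalamus at ZT12.5, and Nrn1 between 10.3 and 14.5 FPKM there, below all cortex and thalamus libraries.

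The second question was what HDAC4CA does to these genes. Vgf and Ptprn, genes of the dense-core granule, were higher with HDAC4CA in cortex and thalamus of both genotypes, in Sleepy mice at both times. Bdnf and Inhba, for secreted ligands, and Nrn1 rose in Sleepy cortex at ZT12.5. Ntrk2 was called in none of the 9 HDAC4CA comparisons with limma (1 had an unadjusted p under 0.05, and voom called 0). Over the 9 comparisons 21 of 63 values were called, all 21 higher. In WT mice the share of all genes called was 6.50% in cortex (3.23% higher; 2 of 7 members higher), 7.18% in thalamus (4.19% higher; 3 of 7) and 0.152% in hypothalamus (0.116% higher; 1 of 7), with median differences of the members of 0.49, 0.27 and 0.41 log2. In Sleepy mice at ZT0.5 it was 4.47% in cortex (2.54% higher; 3 of 7), 8.86% in thalamus (5.24% higher; 3 of 7) and 0.0175% in hypothalamus (0.0175% higher; 0 of 7, with 3 members at an unadjusted p under 0.05 and 1 called by voom), and the members' medians were 0.40, 0.31 and 0.17. At ZT12.5 it was 11.0% (5.83% higher; 5 of 7), 11.9% (6.60% higher; 3 of 7) and 0.0692% (0.0519% higher; 1 of 7), with medians of 0.46, 0.27 and 0.39. The comparisons at 1 time and genotype share their control libraries with the comparisons of CREB.

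**Figure D2:**
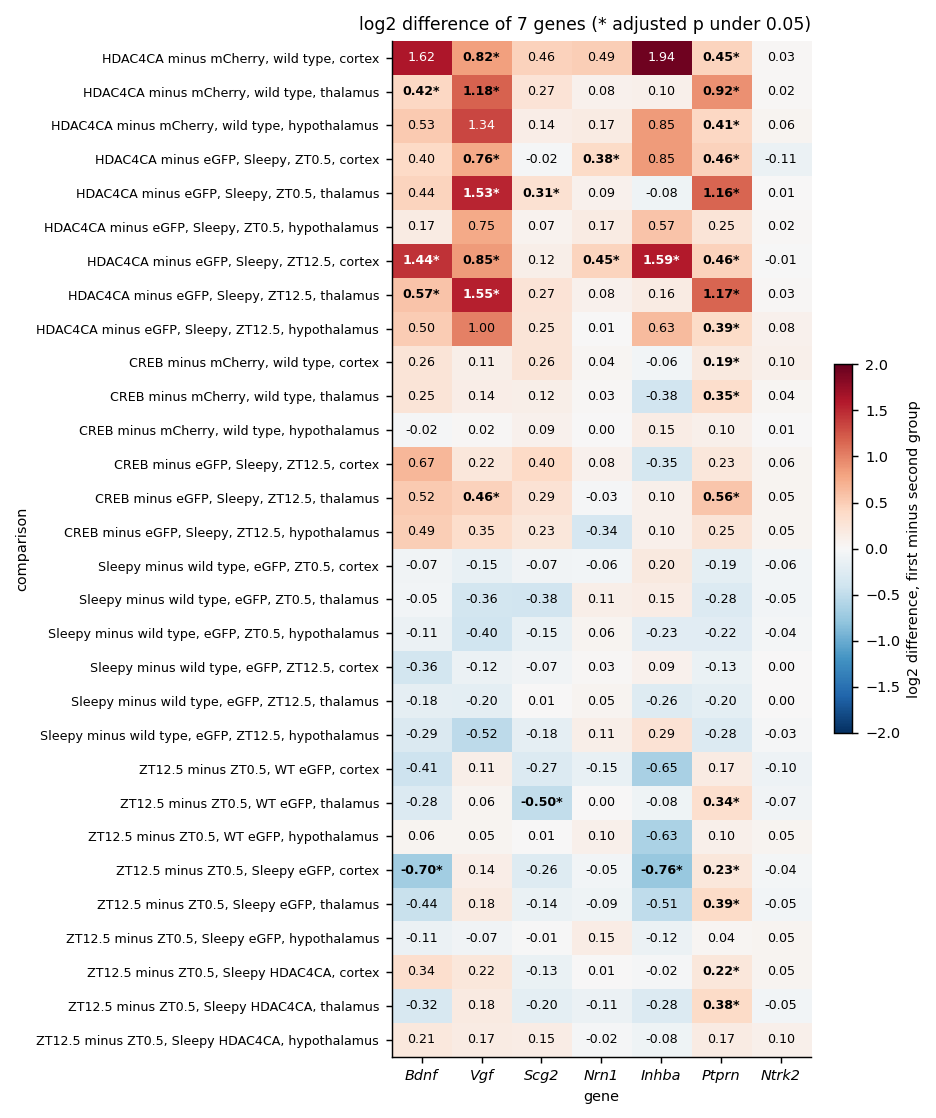
Log2 differences of the 7 genes (columns) in 30 comparisons (rows), colored from lower to higher, with a star where the adjusted p was under 0.05. Ptprn and Vgf carry 8 and 6 stars over the 9 HDAC4CA comparisons, and Ntrk2 carries 0.

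Vgf is cut into several peptides that neurons and endocrine cells release from dense-core granules. In thalamus it had 78.1, 48.9, 56.9 and 59.0 RPKM in WT mice with HDAC4CA, against 30.4, 24.9, 30.2 and 25.4 RPKM in WT mice with mCherry. In Sleepy thalamus at ZT12.5 it had 70.3, 60.5, 69.7 and 83.1 FPKM with HDAC4CA, against 23.8, 22.6, 29.2 and 23.1 FPKM with eGFP. At ZT0.5 the values were 61.5, 70.7, 54.3 and 63.5 FPKM with HDAC4CA and 25.7, 23.3, 19.4 and 22.5 FPKM with eGFP. In each of the 3 comparisons every HDAC4CA library lay above every control library. Vgf was higher by 2.27-fold in WT thalamus (log2 1.18 ± 0.15 SE, adjusted p = 0.0034), 2.93-fold in Sleepy thalamus at ZT12.5 (1.55 ± 0.11, 6.4e-05) and 2.90-fold at ZT0.5 (1.53 ± 0.10, 7.2e-05).

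In cortex Vgf had 47.6, 56.2, 69.2 and 102 RPKM in WT mice with HDAC4CA, against 34.5, 39.5, 36.0 and 46.4 RPKM with mCherry. Sleepy cortex at ZT12.5 had 70.4, 52.6, 61.2 and 59.4 FPKM with HDAC4CA, against 31.4, 32.4, 32.6 and 37.1 FPKM with eGFP. Sleepy cortex at ZT0.5 had 47.4, 54.8, 68.7 and 49.6 FPKM with HDAC4CA, against 31.7, 36.1, 26.5 and 36.1 FPKM with eGFP. Again no HDAC4CA library overlapped its controls, and in WT cortex replicate 4 stood well above the other 3. The differences were 1.77-fold in WT cortex (log2 0.82 ± 0.18, adjusted p = 0.041), 1.81-fold in Sleepy cortex at ZT12.5 (0.85 ± 0.06, 4.7e-05) and 1.70-fold at ZT0.5 (0.76 ± 0.11, 0.0069). The WT call was lost when any 1 of 6 of the 8 libraries was left out (adjusted p = 0.068 to 0.11) and without rescaling (0.14). Without the libraries low in ribosomal protein genes it was 0.73 (0.046).

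In hypothalamus Vgf had 67.0, 85.2, 112 and 108 RPKM in WT mice with HDAC4CA, against 41.5, 36.0, 35.5 and 36.6 RPKM with mCherry. In Sleepy mice at ZT12.5 it had 50.3, 47.6, 77.2 and 65.2 FPKM with HDAC4CA, against 28.2, 32.8, 31.9 and 29.9 FPKM with eGFP. The groups did not overlap in these comparisons or at ZT0.5, and the differences were of the size seen in cortex or above it, yet none passed the adjusted threshold. They were 1.34 ± 0.18 in WT (adjusted p = 0.052), 1.00 ± 0.16 in Sleepy at ZT12.5 (0.13) and 0.75 ± 0.14 at ZT0.5 (0.25). Without replicate 1 of the WT HDAC4CA hypothalamus the WT difference was 1.48 (adjusted p = 0.0022), without replicate 4 of the Sleepy HDAC4CA group at ZT0.5 that at ZT0.5 was 0.90 (0.046), and voom on recovered reads called all 3 (adjusted p = 0.0015, 0.0034 and 0.037).

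Ptprn had its largest HDAC4CA effects in thalamus. There it had 78.5, 72.7, 79.5 and 75.3 RPKM in WT mice with HDAC4CA, against 45.8, 38.3, 45.3 and 39.9 RPKM with mCherry. In Sleepy thalamus at ZT12.5 it had 76.7, 80.6, 84.8 and 92.4 FPKM with HDAC4CA, against 35.5, 41.5, 37.8 and 37.0 FPKM with eGFP. The gap between the groups was wider than the spread within either. The rises were 1.9-fold in WT (log2 0.92 ± 0.06, adjusted p = 4e-05), 2.25-fold in Sleepy at ZT12.5 (1.17 ± 0.05, 4.4e-06) and 2.23-fold at ZT0.5 (1.16 ± 0.06, 1.9e-05).

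Outside thalamus the differences of Ptprn were smaller. WT cortex had 70.3, 70.2, 69.3 and 96.4 RPKM with HDAC4CA, against 55.3, 56.3, 56.0 and 63.9 RPKM with mCherry, with replicate 4 highest in both groups. Ptprn was higher by 1.37-fold in WT cortex (log2 0.45 ± 0.06, adjusted p = 0.0032) and by 1.38-fold in Sleepy cortex at ZT12.5 (0.46 ± 0.03, 3.4e-05) and at ZT0.5 (0.46 ± 0.06, 0.003). Without the libraries low in ribosomal protein genes the WT cortex difference was 0.42 (adjusted p = 0.0051). In hypothalamus Ptprn was higher by 1.33-fold in WT (0.41 ± 0.04, adjusted p = 0.0042) and 1.31-fold in Sleepy at ZT12.5 (0.39 ± 0.05, 0.042), and did not pass at ZT0.5 (0.25 ± 0.06, 0.36). The Sleepy hypothalamus call was lost without any 1 of the 8 libraries (adjusted p = 0.067 to 0.13) and without rescaling (0.085), and the WT cortex call without rescaling (0.06). Gm28294, which shares exon sequence with Ptprn on the other strand, was higher as well, by 1.00 log2 in WT thalamus and 1.21 in Sleepy thalamus at ZT12.5 (adjusted p = 4e-05 and 1e-05), and its part in the Ptprn values was not tested.

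**Figure D3:**
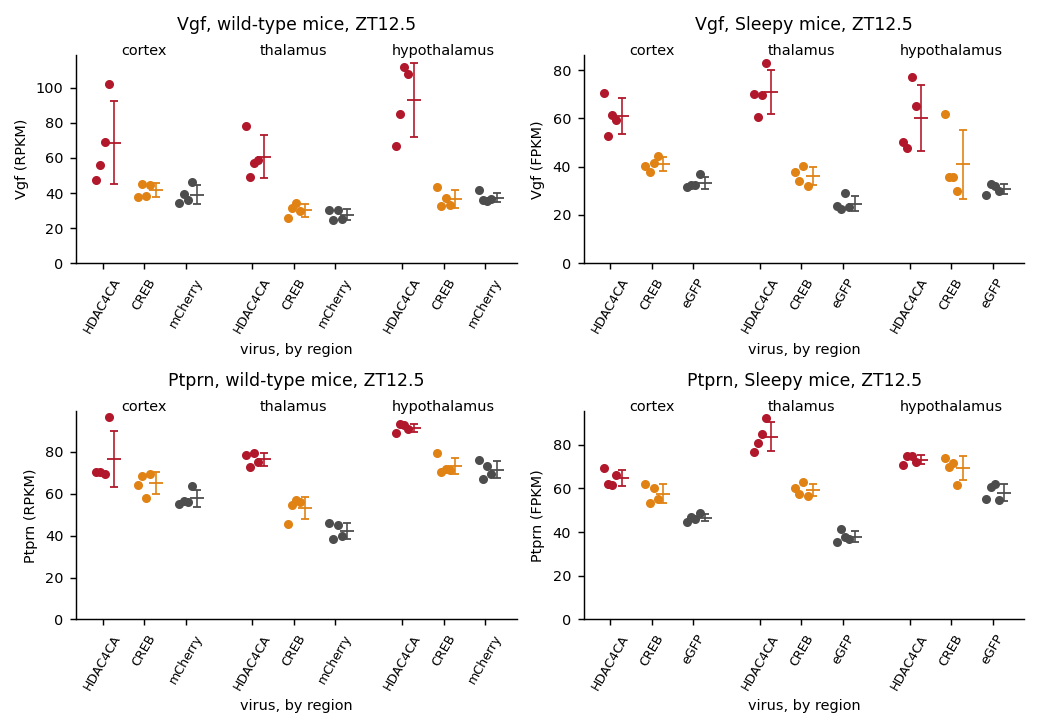
Vgf and Ptprn at ZT12.5 in each library by region, as RPKM in WT mice (HDAC4CA, CREB, mCherry) and as FPKM in Sleepy mice (HDAC4CA, CREB, eGFP); points are libraries and bars the mean ± SD of 4. In Sleepy thalamus Ptprn sits between 76.7 and 92.4 FPKM with HDAC4CA, above all CREB and eGFP libraries.

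Scg2, the other granin gene among the 7, moved little with HDAC4CA. It rose in 1 of the 9 comparisons, Sleepy thalamus at ZT0.5, with 64.4, 55.2, 61.0 and 61.1 FPKM with HDAC4CA, against 53.8, 49.7, 55.5 and 47.4 FPKM with eGFP (log2 0.31 ± 0.06, 1.24-fold, adjusted p = 0.012). The groups overlapped slightly, since the lowest HDAC4CA library lay under the highest eGFP library. At ZT12.5 the groups overlapped in Sleepy thalamus (0.27 ± 0.11, adjusted p = 0.17), and without eGFP replicate 3 the difference passed (0.017). In WT cortex Scg2 had 40.7, 40.9, 45.7 and 96.2 RPKM with HDAC4CA, against 35.4, 39.2, 40.1 and 43.1 RPKM with mCherry. Replicate 4 with HDAC4CA alone stood far above the rest, and the difference did not pass (0.46 ± 0.23, adjusted p = 0.28).

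Bdnf had 3.72, 3.08, 4.39 and 3.82 FPKM in Sleepy cortex at ZT12.5 with HDAC4CA, against 1.33, 1.39, 1.15 and 1.35 FPKM with eGFP. Inhba had 4.22, 2.83, 2.74 and 3.35 FPKM with HDAC4CA, against 1.23, 1.01, 0.852 and 0.943 FPKM with eGFP. Nrn1 had 53.8, 52.4, 44.6 and 50.9 FPKM with HDAC4CA, against 35.2, 41.8, 34.9 and 35.1 FPKM with eGFP. All 12 HDAC4CA values lay above all eGFP values of the same gene. Inhba was 3.02-fold higher (log2 1.59 ± 0.13, adjusted p = 7.3e-05), Bdnf 2.72-fold (1.44 ± 0.12, 6.3e-05) and Nrn1 1.37-fold (0.45 ± 0.07, 0.0018), on the log2(value + 0.1) scale, where folds of low genes such as Inhba come out too small. These calls held without any 1 library. Gm45346, which shares exon sequence with Bdnf on the other strand, was higher by 2.39 log2 there (adjusted p = 6.9e-05), and its part in the Bdnf values was not tested.

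At ZT0.5 in Sleepy cortex the groups overlapped for Bdnf, with 2.12, 2.99, 5.46 and 2.52 FPKM with HDAC4CA, against 2.36, 2.56, 1.89 and 2.51 FPKM with eGFP. Inhba had 3.21, 2.71, 6.69 and 2.41 FPKM with HDAC4CA, against 2.43, 1.99, 1.76 and 1.45 FPKM with eGFP. Replicate 3 with HDAC4CA was highest for both genes, and neither passed (Bdnf 0.40 ± 0.24, adjusted p = 0.43; Inhba 0.85 ± 0.29, 0.16), while voom called Inhba (0.89, adjusted p = 0.025). The same library had the highest Nrn1 (62.2 FPKM), and 18 immediate early genes, which synaptic activity induces, summed to 269 FPKM in it, against 124, 92.0 and 63.8 FPKM in the other 3 HDAC4CA libraries and 193, 212, 112 and 173 FPKM with eGFP. Nrn1 was higher by 1.30-fold (0.38 ± 0.08, adjusted p = 0.025), with 50.3, 49.7, 62.2 and 48.8 FPKM with HDAC4CA, against 36.7, 45.6, 37.2 and 43.1 FPKM with eGFP. That call was lost without eGFP replicate 1, 2 or 3 (adjusted p = 0.069, 0.052 and 0.063) and without rescaling (0.063).

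WT cortex with HDAC4CA was uneven for the same genes. Bdnf had 2.16, 6.49, 10.9 and 21.6 RPKM with HDAC4CA, against 2.26, 2.39, 2.28 and 3.33 RPKM with mCherry. Inhba had 0.893, 2.14, 10 and 16.5 RPKM with HDAC4CA, against 0.876, 1.17, 1.05 and 1.30 RPKM with mCherry. Nrn1 had 39.9, 59.4, 79.1 and 103 RPKM with HDAC4CA, against 48.9, 43.4, 46.5 and 59.2 RPKM with mCherry. For all 3 genes replicate 1 with HDAC4CA lay within or under the control range, and replicates 3 and 4 far above it.

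In these 4 libraries Hdac4 itself was at 5.14, 5.39, 6.10 and 7.40 RPKM (3.24 to 3.84 RPKM with mCherry), and the immediate early genes summed to 85.4, 188, 272 and 562 RPKM (137 to 221 RPKM with mCherry). The part of neither in the members' spread was tested. None of these 3 genes passed in WT cortex, with Bdnf at 1.62 ± 0.64 (adjusted p = 0.20), Inhba at 1.94 ± 0.90 (0.27) and Nrn1 at 0.49 ± 0.25 (0.31). Without replicate 1 with HDAC4CA, Bdnf (2.20, adjusted p = 0.015) and Nrn1 (0.73, 0.023) did.

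**Figure D4:**
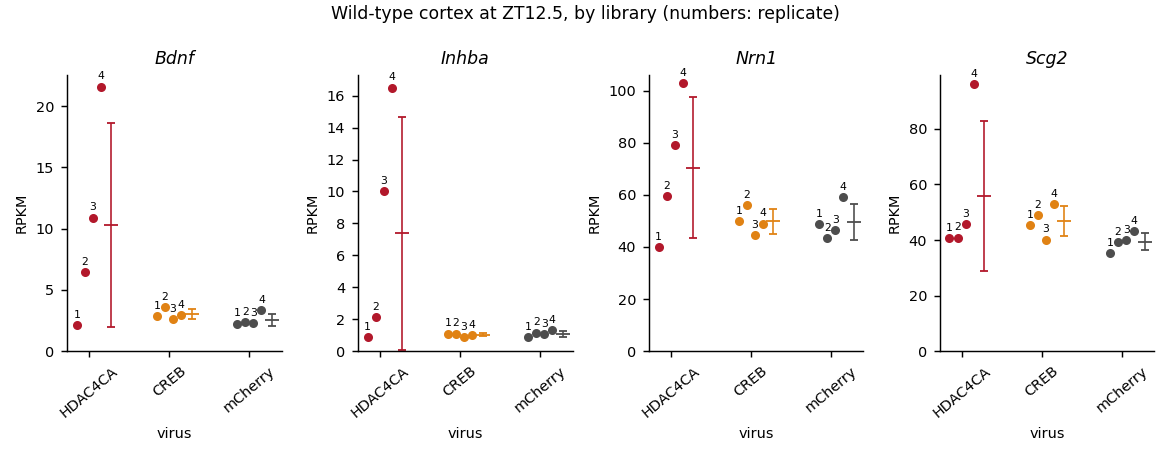
Bdnf, Inhba, Nrn1 and Scg2 in WT cortex at ZT12.5 (RPKM, linear axis from 0) with HDAC4CA, CREB or mCherry; points are libraries with their replicate number and bars the mean ± SD of 4. With HDAC4CA Bdnf spreads from 2.16 to 21.6 RPKM, and with mCherry from 2.26 to 3.33 RPKM.

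In thalamus Bdnf was higher with HDAC4CA in Sleepy mice at ZT12.5, with 0.919, 0.852, 0.953 and 0.860 FPKM with HDAC4CA, against 0.624, 0.537, 0.600 and 0.587 FPKM with eGFP. The groups did not overlap (1.48-fold, log2 0.57 ± 0.12, adjusted p = 0.017), and the call was lost without HDAC4CA replicate 1 or 3 (0.058 and 0.056). In WT thalamus Bdnf had 1.45, 1.19, 1.58 and 1.49 RPKM with HDAC4CA, against 0.967, 1.09, 1.23 and 1.07 RPKM with mCherry (1.34-fold, 0.42 ± 0.11, adjusted p = 0.048). That call was lost without any 1 of 7 of the 8 libraries (adjusted p = 0.063 to 0.14) and without rescaling (0.075). Inhba and Nrn1 did not pass in thalamus, and in Sleepy thalamus at ZT12.5 Inhba had 0.266, 0.455, 0.261 and 0.815 FPKM with HDAC4CA, against 0.386, 0.307, 0.360 and 0.406 FPKM with eGFP.

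In hypothalamus Bdnf, Inhba and Nrn1 did not pass with HDAC4CA. Bdnf had 2.36, 3.13, 3.20 and 4.28 RPKM in WT mice with HDAC4CA, against 2.20, 2.38, 2.17 and 2.23 RPKM with mCherry (0.53 ± 0.17, adjusted p = 0.31), and passed without HDAC4CA replicate 1 (0.66, 0.041). Inhba had 0.385, 0.544, 1.33 and 3.40 RPKM with HDAC4CA, against 0.517, 0.715, 0.485 and 0.463 RPKM with mCherry, so only HDAC4CA replicates 3 and 4 lay above the control range (0.85 ± 0.61, adjusted p = 0.68). Ntrk2 stayed between 21.8 and 57.5 over all 120 libraries in its 2 units, with 28.8 to 37.5 RPKM in WT cortex with HDAC4CA and 29.9 to 37.5 RPKM with mCherry.

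The regional difference of the HDAC4CA effect was tested directly, as thalamus minus cortex. In Sleepy mice at ZT12.5 the effect in thalamus was larger than in cortex for Vgf (difference 0.70 ± 0.14 log2, adjusted p = 0.0051) and Ptprn (0.72 ± 0.06, 6e-06), and smaller for Bdnf (-0.88 ± 0.16, 0.0027) and Inhba (-1.44 ± 0.30, 0.0058). At ZT0.5 it was larger for Vgf (0.79 ± 0.16, adjusted p = 0.011) and Ptprn (0.71 ± 0.08, 0.00013). In WT mice it was larger for Ptprn (0.47 ± 0.09, adjusted p = 0.0094). Gm28294, which shares exon sequence with Ptprn, passed in the same tests (0.79, 0.67 and 0.58, adjusted p = 2.2e-05, 0.0043 and 0.0018). Gm45346, which shares exon sequence with Bdnf, was at -1.35 in Sleepy mice at ZT12.5 (adjusted p = 0.0078). Their part was not tested. In the WT test all thalamus libraries, but only 1 cortex library per group, were low in ribosomal protein genes. Region and this kind of library cannot be fully told apart there. Of all genes 9.10%, 3.30% and 3.55% were called in the 3 tests, in the order given for Ptprn. These tests were repeated with 1 replicate number left out in all 4 groups at a time. Of the 7 calls, the Vgf call at ZT12.5 was lost without replicate 4 (adjusted p = 0.1), that at ZT0.5 without replicate 2 or 4 (0.12 and 0.17), that of Inhba without replicate 3 (0.056) and that of Ptprn in WT mice without replicate 2 or 3 (0.079 and 0.13) and without rescaling (0.099). No member passed in the test of whether the HDAC4CA effect in Sleepy mice differed between ZT12.5 and ZT0.5 (0% of all genes in each region; 2, 0 and 0 of 7 members at an unadjusted p under 0.05 in cortex, thalamus and hypothalamus; voom called 0). For Bdnf in cortex that difference was 1.05 ± 0.28 (adjusted p = 0.49), and with replicate 3 left out in all 4 groups it was 1.23 (0.029).

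Markers of other cells moved with some of these groups. Of 9 reactive astrocyte markers (Gfap, Serpina3n, Vim and others), 8 were tested and 6 were higher with HDAC4CA in Sleepy cortex at ZT12.5, where the 9 summed to 50.3 to 84.6 FPKM with HDAC4CA and 21.9 to 24.9 FPKM with eGFP, and 6 were higher in WT cortex (42.6 to 68.8 against 24.5 to 29.4 RPKM). In thalamus 4 were higher in WT mice (55.1 to 73.5 against 37.8 to 45.5 RPKM) and 4 in Sleepy mice at ZT12.5 (48.4 to 72.2 against 32.0 to 38.5 FPKM). Choroid plexus markers in Sleepy thalamus at ZT12.5 summed to 8.18 to 14.5 FPKM with HDAC4CA and 573 to 1660 FPKM with eGFP, with 8 of 8 lower.

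Of 5 blood markers (hemoglobins and others), 0 passed in Sleepy cortex at ZT12.5, although their sum was lower with no overlap (33.8 to 69.7 FPKM with HDAC4CA, 71.6 to 173 FPKM with eGFP). At ZT0.5 4 of 5 were lower in that cortex (33.7 to 49.9 against 61.4 to 97.1 FPKM) and 2 of 5 in Sleepy thalamus (33.5 to 62.1 against 74.1 to 139 FPKM). In Sleepy thalamus at ZT12.5 5 of 5 were lower, and the sums overlapped (43.2 to 97.1 against 95.5 to 193 FPKM). Of 9 cortex markers 2 were lower and 1 was higher in Sleepy cortex at ZT12.5, where they summed to 59.9 to 71.7 FPKM with HDAC4CA and 72.4 to 87.5 FPKM with eGFP. The 6 oligodendrocyte markers had lower sums with HDAC4CA in WT cortex (204 to 233 against 242 to 335 RPKM, 0 called), in Sleepy cortex at ZT0.5 (153 to 176 against 189 to 217 FPKM, 2 lower) and in Sleepy thalamus at ZT0.5 (527 to 673 against 727 to 789 FPKM, 2 lower). Of 8 homeostatic astrocyte markers 2 were lower in Sleepy thalamus at ZT0.5 (321 to 350 against 362 to 395 FPKM). The 7 neuron markers summed to 442 to 468 FPKM with HDAC4CA and 374 to 440 FPKM with eGFP in Sleepy cortex at ZT0.5, with 1 higher. In hypothalamus, where fewer genes were called, 5 endothelium markers in WT mice (26.7 to 27.5 against 29.0 to 37.2 RPKM) and the homeostatic astrocyte markers in Sleepy mice at ZT12.5 (343 to 361 against 367 to 384 FPKM) had lower sums, with 0 called in each. The part of these markers in the members' differences was not tested.

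The third question was what CREB does to the same genes. Ptprn rose in thalamus of both genotypes and in WT cortex, and Vgf in Sleepy thalamus, and no other member was called. Over the 6 comparisons 4 of 42 values were called, all higher. Of all genes 0.0622%, 3.42% and 0% were called in WT cortex (1 of 7 members), thalamus (1 of 7) and hypothalamus (0 of 7), and 0.0674%, 4.39% and 0.00575% in Sleepy cortex (0 of 7), thalamus (2 of 7) and hypothalamus (0 of 7). In WT cortex 10 genes were called, and 1 with the replicate number as a block. Beside the counts of 0 with limma, 1, 4 and 4 members had an unadjusted p under 0.05 in WT hypothalamus, Sleepy cortex and Sleepy hypothalamus, and voom called 0, 3 and 0. These comparisons share their mCherry and eGFP libraries with those of HDAC4CA.

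Ptprn had 60.2, 57.6, 62.8 and 56.4 FPKM in Sleepy thalamus with CREB, against 35.5, 41.5, 37.8 and 37.0 FPKM with eGFP, with no overlap (1.48-fold, log2 0.56 ± 0.05, adjusted p = 0.00086). In WT thalamus it had 45.5, 54.5, 57.1 and 55.9 RPKM with CREB, against 45.8, 38.3, 45.3 and 39.9 RPKM with mCherry, and CREB replicate 1 lay inside the control range (1.27-fold, 0.35 ± 0.07, adjusted p = 0.029). In WT cortex it had 64.4, 68.6, 57.9 and 69.4 RPKM with CREB, against 55.3, 56.3, 56.0 and 63.9 RPKM with mCherry (1.14-fold, 0.19 ± 0.03, adjusted p = 0.044). The WT cortex call was lost without any 1 library (adjusted p = 0.11 to 0.32), with the replicate number as a block (0.12) and without the libraries low in ribosomal protein genes (0.15), without rescaling (1.0), with size factors (0.062) and with voom (0.064). The WT thalamus call was lost without any 1 of 6 of the 8 libraries (0.053 to 0.11) and without rescaling (0.08). The call in Sleepy thalamus held without any 1 library. Gm28294, which shares exon sequence with Ptprn, was higher with CREB in Sleepy and WT thalamus (0.63 and 0.46 log2, adjusted p = 0.0017 and 0.019). It did not pass in WT cortex (0.17, adjusted p = 0.58), and its part in these Ptprn values was not tested.

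Vgf in Sleepy thalamus had 37.7, 34.0, 40.2 and 31.9 FPKM with CREB, against 23.8, 22.6, 29.2 and 23.1 FPKM with eGFP, with no overlap (1.38-fold, 0.46 ± 0.10, adjusted p = 0.036). The call was lost without any 1 of 7 of the 8 libraries, with adjusted p up to 0.1. In deposited FPKM, Bdnf, Vgf, Scg2, Ptprn and Ntrk2 with CREB lay above every eGFP library in Sleepy cortex without passing. Bdnf and Ntrk2 did so in Sleepy thalamus. Without rescaling the median over all genes was higher with CREB too, by 0.07 log2 in Sleepy cortex and 0.08 in Sleepy thalamus. The share of all genes whose groups did not overlap was not computed. Bdnf had 2.43, 1.84, 2.09 and 2.68 FPKM in Sleepy cortex with CREB, against 1.33, 1.39, 1.15 and 1.35 FPKM with eGFP (0.67 ± 0.12, adjusted p = 0.12). Scg2, whose window shown above holds the full CRE, had 34.9, 31.8, 35.1 and 34.5 FPKM with CREB in that cortex, against 27.0, 20.9, 26.6 and 23.8 FPKM with eGFP (0.40 ± 0.09, adjusted p = 0.19). Ptprn had 62.2, 53.1, 60.2 and 55.1 FPKM with CREB there, against 44.7, 47.0, 46.2 and 48.6 FPKM with eGFP (0.23 ± 0.06, adjusted p = 0.22). Ntrk2 had 24.9 to 27.8 FPKM with CREB there, against 23.8 to 24.6 FPKM with eGFP (0.06 ± 0.04, adjusted p = 0.70). Without rescaling Bdnf passed in Sleepy cortex and thalamus (adjusted p = 0.047 and 0.037) and Scg2 in Sleepy cortex (0.041), and voom called Bdnf (0.0064), Scg2 (0.0086) and Ptprn (0.034) in Sleepy cortex and Bdnf (0.029) in Sleepy thalamus. Inhba was not higher with CREB in cortex, at 0.993, 0.747, 0.468 and 1.17 FPKM in Sleepy cortex with CREB, against 1.23, 1.01, 0.852 and 0.943 FPKM with eGFP (-0.35, adjusted p = 0.68).

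Markers of other cells moved with CREB too. The 8 homeostatic astrocyte markers summed to 377 to 401 FPKM with CREB and 319 to 339 FPKM with eGFP in Sleepy thalamus, with 2 called higher, and to 505 to 527 RPKM with CREB and 479 to 486 RPKM with mCherry in WT thalamus, with 2 called higher. In Sleepy cortex they summed to 360 to 373 FPKM with CREB and 299 to 317 FPKM with eGFP, with 0 called. The 6 oligodendrocyte markers, with 0 called, summed to 642 to 680 FPKM with CREB and 496 to 622 FPKM with eGFP in Sleepy thalamus, and to 181 to 195 FPKM and 158 to 173 FPKM in Sleepy cortex. The 9 reactive astrocyte markers, with 0 called, summed to 40.5 to 50.5 FPKM with CREB and 32.0 to 38.5 FPKM with eGFP in Sleepy thalamus, and to 33.3 to 87.2 RPKM with CREB and 24.5 to 29.4 RPKM with mCherry in WT cortex. The part of these markers in the CREB differences of the members was not tested.

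HDAC4CA was also set directly against CREB, which answers whether the 2 factors differ in their effect on a gene. In Sleepy cortex 6 of the 7 genes differed, against 10% of all genes. Inhba was 3.88-fold higher with HDAC4CA than with CREB (log2 1.96 ± 0.23, adjusted p = 0.00081), and Bdnf (0.79 ± 0.14, 0.0053), Vgf (0.64 ± 0.07, 0.00033), Nrn1 (0.38 ± 0.06, 0.0034) and Ptprn (0.24 ± 0.05, 0.017) were higher too. Gm45346, which shares exon sequence with Bdnf, was higher as well (1.55, adjusted p = 0.0016). Gm28294, which shares exon sequence with Ptprn, did not pass (0.21, 0.071). The part of both in the members' values was not tested. Scg2 was lower with HDAC4CA than with CREB, at 29.6, 25.1, 27.4 and 24.7 FPKM against 34.9, 31.8, 35.1 and 34.5 FPKM with no overlap (-0.28 ± 0.06, 0.017). The Scg2 call was lost without any 1 of 4 of the 8 libraries (adjusted p = 0.05 to 0.067), and that of Ptprn without CREB replicate 4 (0.054) and without rescaling (0.17). Reactive astrocyte markers were higher with HDAC4CA than with CREB in Sleepy cortex (6 of 8 tested). Sums of homeostatic astrocyte markers were lower with HDAC4CA there, without overlap (286 to 323 against 360 to 373 FPKM). So were those of cortex markers (59.9 to 71.7 against 75.4 to 83.3 FPKM). The part of these markers was not tested.

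In thalamus Vgf and Ptprn were higher with HDAC4CA than with CREB in Sleepy mice (1.09 ± 0.10 and 0.61 ± 0.05, adjusted p = 0.00022 and 0.00014, against 14.4% of all genes called) and in WT mice (1.04 ± 0.15 and 0.58 ± 0.07, 0.0033 and 0.00049, against 12.6%). Gm28294 was higher there too (0.58 in Sleepy and 0.55 in WT mice, adjusted p = 0.00045 and 0.00088), and its part in the Ptprn values was not tested. For Bdnf the 2 factors gave 0.919, 0.852, 0.953 and 0.860 FPKM with HDAC4CA and 0.809, 0.936, 0.871 and 1.15 FPKM with CREB in Sleepy thalamus, and the groups overlapped (0.05, adjusted p = 0.84). In WT cortex Ptprn was higher with HDAC4CA (0.28 ± 0.06, adjusted p = 0.028, 5.97% of all genes called), as in WT hypothalamus (0.30 ± 0.04, 0.031, 0.188%). Vgf in WT hypothalamus had 67.0, 85.2, 112 and 108 RPKM with HDAC4CA, against 43.5, 32.4, 37.2 and 33.3 RPKM with CREB. The groups did not overlap and the difference did not pass (1.31 ± 0.19, adjusted p = 0.067), but voom called it (0.0015) and it passed without HDAC4CA replicate 1 (1.47, 0.0069). In WT cortex Vgf did not pass (0.73 ± 0.18, adjusted p = 0.059) and did with the replicate number as a block (0.047) or without HDAC4CA replicate 1 (0.011) or 4 (0.047), and voom called it (0.029). The 2 Ptprn calls were lost without any 1 of 5 and of 7 of the 8 libraries, with adjusted p up to 0.092 and 0.13, and the one in cortex also without rescaling (0.38). Gm28294 was higher in WT cortex and hypothalamus as well (0.26 and 0.31, adjusted p = 0.045 and 0.018). In Sleepy hypothalamus 0 of 7 members passed with limma (0.0345% of all genes), 1 had an unadjusted p under 0.05, and voom called 0. Marker sums in Sleepy thalamus were lower with HDAC4CA than with CREB, without overlap, for homeostatic astrocytes (278 to 344 against 377 to 401 FPKM). The same held for oligodendrocytes (517 to 611 against 642 to 680 FPKM) and choroid plexus (8.18 to 14.5 against 19.1 to 1040 FPKM). Homeostatic astrocyte sums were also lower in WT thalamus (428 to 480 against 505 to 527 RPKM). The part of these markers was not tested.

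The fourth question was whether the Sleepy allele changes these genes in mice with eGFP. With limma 0 of 42 values were called over the 3 regions and 2 times, while 13 had an unadjusted p under 0.05 and voom called 2. Few genes of any kind were called: 0% in cortex and hypothalamus at ZT0.5, 0.0359% in thalamus at ZT0.5 and 0% in the 3 regions at ZT12.5, although 761 to 1454 genes had an unadjusted p under 0.05 in each. Ptprn was lower in the mean in all 6 comparisons, by 0.13 to 0.28 log2, each with an unadjusted p under 0.05. In thalamus at ZT0.5 Ptprn had 29.0, 29.6, 34.0 and 28.9 FPKM in Sleepy mice, against 37.4, 34.7, 42.5 and 37.0 FPKM in WT mice (-0.28 ± 0.06, adjusted p = 0.21). Scg2 had 53.8, 49.7, 55.5 and 47.4 FPKM in Sleepy mice, against 66.0, 69.0, 72.7 and 68.5 FPKM in WT mice (-0.38 ± 0.06, adjusted p = 0.077). Every Sleepy library lay below every WT library for both genes, and voom called both (Scg2 0.0083, Ptprn 0.048). Hypothalamus markers summed to 50.9 to 128 FPKM in these Sleepy thalamus libraries and 92.6 to 113 FPKM in the WT ones, and their part was not tested.

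Vgf pointed the same way without passing. In hypothalamus at ZT0.5 it had 32.1, 34.8, 29.1 and 32.2 FPKM in Sleepy mice, against 47.4, 45.0, 37.8 and 40.2 FPKM in WT mice, with no overlap (-0.40 ± 0.07, adjusted p = 1.0). Bdnf in cortex at ZT12.5 had 1.33, 1.39, 1.15 and 1.35 FPKM in Sleepy mice, against 1.49, 1.26, 2.76 and 1.64 FPKM in WT mice, and the groups overlapped (-0.36, adjusted p = 0.79). Bdnf, Inhba, Nrn1 and Ntrk2 had no unadjusted p under 0.05 in any of the 6 comparisons.

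The fifth question was how the genes differ between the dissections just after lights off (ZT12.5) and just after lights on (ZT0.5). Ptprn was higher at ZT12.5 in thalamus of all 3 kinds of mice and in cortex of Sleepy mice. With limma Bdnf, Inhba and Scg2 were called lower at ZT12.5 in 1 comparison each. Over 9 comparisons 8 of 63 values were called, 5 higher and 3 lower. In thalamus the members were called at a rate near or below that of all genes, as the shares given here show. Ptprn in thalamus had 44.7, 46.3, 45.4 and 43.9 FPKM at ZT12.5 and 37.4, 34.7, 42.5 and 37.0 FPKM at ZT0.5 in WT mice with eGFP, with no overlap (1.26-fold, log2 0.34 ± 0.05, adjusted p = 0.0011; 2 of 7 members called against 25.8% of all genes). In Sleepy thalamus it was 1.31-fold higher with eGFP (0.39 ± 0.05, adjusted p = 0.002; 1 of 7 against 21.3%) and 1.30-fold higher with HDAC4CA (0.38 ± 0.06, 0.0015; 1 of 7 against 28.0%). In Sleepy cortex it was higher with eGFP (0.23 ± 0.04, adjusted p = 0.009; 3 of 7 against 6.64%) and with HDAC4CA (0.22 ± 0.05, 0.042; 1 of 7 against 4.41%), and both cortex calls were lost without rescaling (0.22 and 0.26). The HDAC4CA cortex call was also lost without any 1 of 7 of the 8 libraries (0.067 to 0.11). Gm28294 was higher at ZT12.5 in WT thalamus (0.22, adjusted p = 0.029) and Sleepy thalamus with HDAC4CA (0.26, 0.013). The same held in Sleepy cortex with eGFP (0.2, 0.029). It did not pass in Sleepy thalamus with eGFP (0.22, 0.12) or Sleepy cortex with HDAC4CA (0.12, 0.24), and its part was not tested.

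Cell markers differed between the same times. In Sleepy thalamus with eGFP 6 oligodendrocyte markers summed to 496 to 622 FPKM at ZT12.5 and 727 to 789 FPKM at ZT0.5 (3 lower), 8 homeostatic astrocyte markers to 319 to 339 FPKM and 362 to 395 FPKM (2 higher, 3 lower), and 7 neuron markers to 264 to 292 FPKM and 301 to 314 FPKM (1 higher, 1 lower). Of 5 endothelium markers 2 were lower there (28.0 to 31.6 FPKM at ZT12.5, 36.8 to 46.1 FPKM at ZT0.5), and 2 in WT thalamus (28.2 to 34.4 and 40.8 to 51.6 FPKM). In Sleepy thalamus with HDAC4CA 3 of 5 were lower, with overlapping sums (23.5 to 33.5 and 32.2 to 36.0 FPKM), as were 4 of 8 choroid plexus markers (8.18 to 14.5 and 9.53 to 1040 FPKM). In Sleepy cortex with eGFP the endothelium markers summed to 21.9 to 25.5 FPKM at ZT12.5 and 27.5 to 33.2 FPKM at ZT0.5 (1 lower), and the oligodendrocyte markers to 158 to 173 FPKM and 189 to 217 FPKM (1 lower). In Sleepy cortex with HDAC4CA 2 of 8 tested reactive astrocyte markers were higher at ZT12.5, with overlapping sums (50.3 to 84.6 and 28.8 to 55.8 FPKM). The part of these markers in the time differences of Ptprn, Bdnf and Inhba was not tested.

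Scg2 in thalamus of WT mice with eGFP had 46.8, 50.2, 44.3 and 43.2 FPKM at ZT12.5, against 66.0, 69.0, 72.7 and 68.5 FPKM at ZT0.5. The times did not overlap (log2 -0.50 ± 0.06, adjusted p = 0.00057). In the same libraries 11 hypothalamus markers summed to 35.8 to 89.7 FPKM at ZT12.5 and 92.6 to 113 FPKM at ZT0.5, 3 of 10 tested were lower, and their part in the Scg2 difference was not tested. In Sleepy thalamus with eGFP Scg2 had 39.9, 45.8, 56.1 and 38.6 FPKM at ZT12.5 and 53.8, 49.7, 55.5 and 47.4 FPKM at ZT0.5, with overlap (-0.14, adjusted p = 0.39; 0.032 without ZT12.5 replicate 3). Whether the 2 genotypes differ in the time difference of Scg2 did not pass (0.38 ± 0.13, adjusted p = 0.64). In those tests of genotype by time 0% of genes were called in each region, 0, 1 and 0 of 7 members had an unadjusted p under 0.05 in cortex, thalamus and hypothalamus, and voom called 0. Scg2 was also lower at ZT12.5 without passing in Sleepy cortex with eGFP (-0.26) and Sleepy thalamus with HDAC4CA (-0.20). Voom called both (adjusted p = 0.034 and 0.024). The first also passed with the replicate number as a block (0.031) and the second with median-of-ratios size factors (0.047).

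Bdnf in Sleepy cortex with eGFP had 1.33, 1.39, 1.15 and 1.35 FPKM at ZT12.5, against 2.36, 2.56, 1.89 and 2.51 FPKM at ZT0.5. Inhba there had 1.23, 1.01, 0.852 and 0.943 FPKM at ZT12.5, against 2.43, 1.99, 1.76 and 1.45 FPKM at ZT0.5. Neither gene overlapped between times, and the differences were -0.70 ± 0.09 (adjusted p = 0.0051) and -0.76 ± 0.16 (0.024) on the log2 scale. The Inhba call was lost without any 1 of 5 of the 8 libraries (adjusted p = 0.056 to 0.067). In WT cortex with eGFP the same genes did not pass (Bdnf -0.41, adjusted p = 0.32; Inhba -0.65 ± 0.17, 0.093), and Inhba passed without ZT12.5 replicate 4 (-0.81, 0.042). With HDAC4CA in Sleepy cortex neither passed, Bdnf at 3.72, 3.08, 4.39 and 3.82 FPKM at ZT12.5 and 2.12, 2.99, 5.46 and 2.52 FPKM at ZT0.5 (0.34, adjusted p = 0.46). Without ZT0.5 replicate 3, the library with the high immediate early sum, Bdnf with HDAC4CA was higher at ZT12.5 (0.61, 0.045).

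Cortex of WT mice had 0 of 7 members called between times with limma (1.51% of all genes), 5 at an unadjusted p under 0.05 and 1 with voom, which was Inhba (adjusted p = 0.0099). In hypothalamus 0 of 7 were called in WT mice with eGFP, Sleepy mice with eGFP and Sleepy mice with HDAC4CA (0.203%, 0.372% and 0.203% of all genes), 1, 0 and 2 had an unadjusted p under 0.05, and voom called 0. Vgf had no unadjusted p under 0.05 in any of the 9 time comparisons, but passed in Sleepy mice with HDAC4CA in cortex without ZT0.5 replicate 3 (adjusted p = 0.038) and in thalamus without ZT12.5 replicate 2 (0.041).

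**Figure D5:**
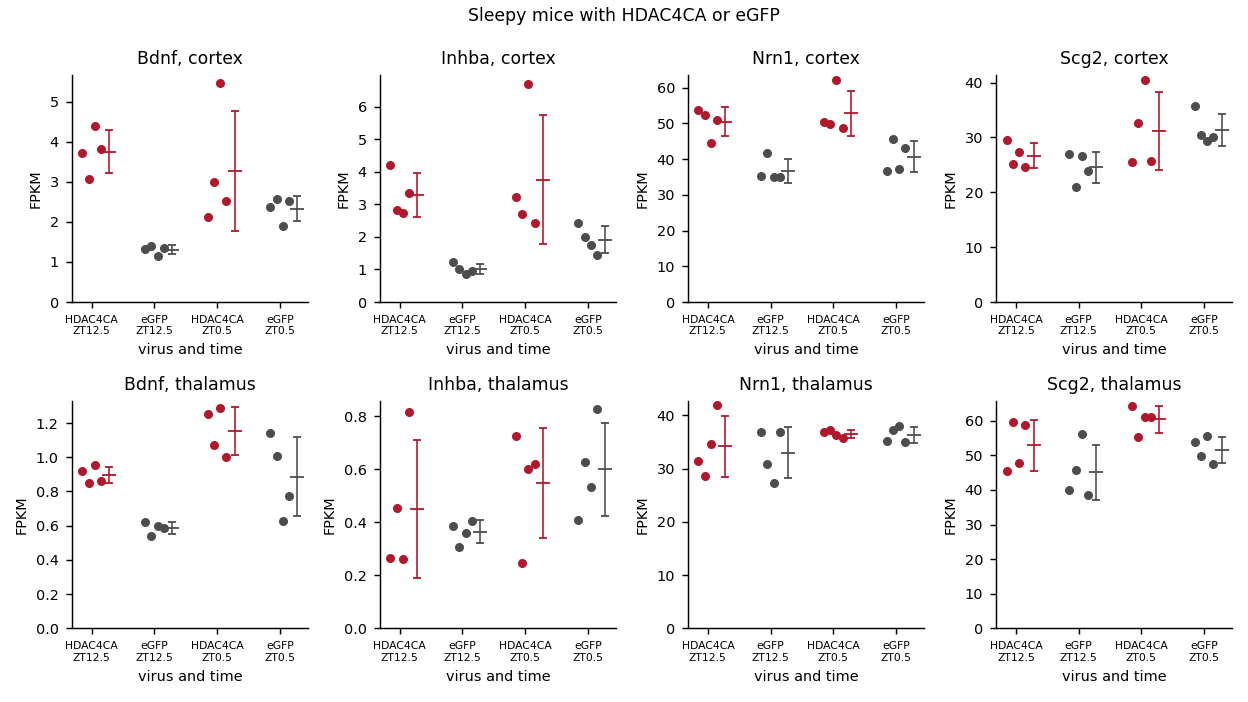
Bdnf, Inhba, Nrn1 and Scg2 in Sleepy cortex (top) and thalamus (bottom) in FPKM, with HDAC4CA and eGFP at ZT12.5 and then at ZT0.5; points are libraries and bars the mean ± SD of 4. In cortex at ZT12.5 Bdnf sits between 3.08 and 4.39 FPKM with HDAC4CA and between 1.15 and 1.39 FPKM with eGFP; at ZT0.5 the groups overlap.

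Genes of the same pathways were followed as lists beside the members. Their counts are read against all genes, of which 11.0% were called in Sleepy cortex at ZT12.5 (5.83% higher), 11.9% in Sleepy thalamus (6.60% higher) and 7.18% in WT thalamus (4.19% higher), and whether a list differs from other genes was not tested. Of 14 granin and peptide-processing genes, 4 were higher and 2 lower with HDAC4CA in Sleepy cortex at ZT12.5 (median -0.01 log2), among them Chgb (0.65, adjusted p = 0.00011), Cadps2 (-0.80, 0.00011) and Pcsk1, a prohormone convertase (-0.89, 0.00016). In Sleepy thalamus at ZT12.5 5 were higher and 0 lower (median 0.16), led by Ptprn2, the paralog of Ptprn (0.30, adjusted p = 0.0037), and Pcsk2 (0.50, 0.008). In WT thalamus 3 were higher and 0 lower (median 0.13). Of 10 neurotrophin and receptor genes, 7 were tested and 4 were higher and 1 lower in Sleepy cortex at ZT12.5 (median 0.29), including the sortilin-family receptors Sorcs2 (0.52, adjusted p = 0.0045) and Sorcs3 (0.81, 0.0047) and the receptor Ntrk3 (0.29, 0.015). Of 14 activin-signalling genes 2 were higher and 0 lower there (median -0.11), a share near that of all genes, namely the receptors Acvr1c (0.57, adjusted p = 0.0061) and Acvr1 (0.43, 0.012).

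Of 18 immediate early genes 1 was higher and 3 were lower with HDAC4CA in that cortex (median -0.49), against 11.0% of all genes called in either direction, with Npas4 at -2.23 (adjusted p = 0.00099) and Ier5 at 0.51 (0.015). Of 17 tested late activity-regulated genes, 8 were higher and 2 lower (median 0.17), led by the pentraxins Nptx2 (2.33, adjusted p = 9e-06) and Nptx1 (0.87, 4.7e-05). Early and late genes were not tested against each other. In Sleepy thalamus at ZT12.5 5 of 17 tested immediate early genes were higher and 1 lower (median 0.19), and 4 of 14 tested late genes were higher and 2 lower (median 0.08). The median over all genes lay between -0.015 and 0.030 in these comparisons. With CREB, 2 late genes were higher in thalamus of Sleepy and of WT mice, Gpr3 and Crem, and Gpr3 also in Sleepy cortex. Of all genes 4.39%, 3.42% and 0.0674% were called with CREB in Sleepy thalamus, WT thalamus and Sleepy cortex. The lists of neurotrophin and activin genes held no called gene in any of the 6 CREB comparisons with limma.

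Across the 21 FPKM group means, with each region's mean subtracted, Vgf and Ptprn were the most alike pair of members (Pearson r = 0.90 on the log2 scale). Nrn1 and Inhba had r = 0.77, Scg2 and Ntrk2 0.76, and Bdnf and Inhba 0.70, while Inhba and Ptprn had 0.08. Of 13722 genes, the most like Ptprn were Cbarp (0.95), Fbxo44 (0.91) and Rrp1 (0.91), and the most like Vgf were Eno2 (0.93), Wsb2 (0.92) and Hdac4 (0.92). Hdac4 is the gene delivered as HDAC4CA and was higher in every comparison of HDAC4CA with its control. Its likeness to a gene higher with HDAC4CA therefore follows in part from the design. The most like Bdnf were Rundc3b (0.88), Lrpprc (0.87) and Zrsr2 (0.87), and the most like Inhba were Gpr139 (0.87), the activin receptor gene Acvr1 (0.86) and Col4a1 (0.85). For Nrn1 they were Ret (0.88), Chac1 (0.85) and Myt1l (0.85), for Scg2 Rab3gap1, Resp18 and Zdbf2 (0.88 each), and for Ntrk2 Ing2 (0.91), Atxn7 (0.89) and Arid4b (0.87). Unlike the tests, these r values rest on deposited values without rescaling, so shifts of scale common to all genes enter them. Between times in Sleepy cortex with eGFP that shift was -0.09 log2, while the Ntrk2 time differences lay between -0.10 and 0.10. The part of such shifts in r was not tested. The r values are descriptions over points that share libraries, virus and depth, and no p was computed.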

How the data were processed

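RNA levels were measured by sequencing polyadenylated RNA in 120 libraries. The submitters' processing notes name CASAVA 1.9, STAR 2.6.1a, featureCounts, edgeR 3.28.1 and GRCm38, without saying which step each served. The authors deposited RPKM for 36 libraries and FPKM for 84, and the analysis kept the 2 apart. Each file had 49585 rows; 26 whose symbols had become dates were dropped, and 93 symbols listed more than once kept 1 row each. Whole reads were recovered with GENCODE M21 exon lengths (95.4% of genes), and 94.2 to 95.6% of a library's low values (20 reads or fewer) came out whole to within 0.1. Those of Inhba, Ntrk2 and Nrn1 did not in most libraries. Depths were 14.84 to 28.16 M reads in RPKM libraries and 13.52 to 24.52 M in FPKM libraries.

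Counts were allowed for in the design, but the files hold normalized values, so limma 3.58.1 (R 4.3.3, trend, robust) was run on log2(value + 0.1). For the tests, values were rescaled by the trimmed mean of M values (trims 0.3 and 0.05) on recovered reads. Library values, group means and marker sums are given as deposited, without this rescaling. Genes needed a mean of 10 recovered reads, or a mean value of 1 with no exon length. Benjamini-Hochberg adjustment ran over all genes, with calls at 0.05. Scripts were tested on simulated data. Each comparison used only its own groups, 4 libraries each. Alternatives were no rescaling, median-of-ratios size factors, no filter, other pseudocounts, voom on recovered reads, a replicate block and leaving out each library or, for differences of effects, each replicate number. The labels do not say which libraries came from 1 mouse. The members and lists were chosen with earlier results of these data known. By the rule for naming, the text gives all 7 members and, of each list, up to 3 called genes with the smallest adjusted p.

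Same-numbered libraries deviated together (r over 0.1 for every number) in 3 of 42 comparisons, all in WT cortex with RPKM, where number 4 is also the library with low ribosomal protein genes. With the numbers as pairs there, only the calls named beside the results changed.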

Additional observations from a re-analysis of the deposited data

Results flagged for a closer look

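In 15 of 210 groups of 4 libraries, 1 library lay apart from the other 3 for a member (its gap to the nearest, relative to the group's range, exceeded Dixon's limit), where chance gives about 1 in 20. Replicate 4 of WT cortex was such a library for Scg2 (96.2 RPKM) and Ptprn (96.4 RPKM) with HDAC4CA, and for Bdnf (3.33 RPKM) and Ptprn (63.9 RPKM) with mCherry. Each of these was high, and replicate 4 of each WT cortex group is also the library low in ribosomal protein genes. Among the other RPKM libraries, Ptprn was high in WT CREB hypothalamus replicate 1 (79.2 RPKM), and Ntrk2 was low in WT HDAC4CA thalamus replicate 4 (38.3 RPKM).

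In the FPKM libraries Nrn1 was high in WT eGFP thalamus replicate 4 at ZT12.5 (35.6 FPKM), in Sleepy eGFP cortex replicate 2 at ZT12.5 (41.8 FPKM) and in Sleepy HDAC4CA cortex replicate 3 at ZT0.5 (62.2 FPKM). Vgf was high in WT eGFP hypothalamus replicate 3 at ZT12.5 (70.0 FPKM), and Bdnf in Sleepy CREB hypothalamus replicate 1 (2.86 FPKM). Scg2 was low in WT eGFP hypothalamus replicate 3 at ZT0.5 (144 FPKM) and in Sleepy HDAC4CA hypothalamus replicate 4 at ZT0.5 (160 FPKM). Ptprn was high in Sleepy eGFP thalamus replicate 3 at ZT0.5 (34.0 FPKM), and Ntrk2 was low in Sleepy HDAC4CA hypothalamus replicate 3 at ZT12.5 (43.6 FPKM).

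The HDAC4CA effect differed between thalamus and cortex, by a test of the difference, for 7 values. It was larger in thalamus for Ptprn in WT mice (0.47 log2) and in Sleepy mice at ZT0.5 (0.71) and ZT12.5 (0.72), and for Vgf in Sleepy mice at ZT0.5 (0.79) and ZT12.5 (0.70). It was smaller in thalamus for Bdnf (-0.88) and Inhba (-1.44) in Sleepy mice at ZT12.5.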

How the results depend on the processing

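No called member value changed sign under any alternative that was run. Of 84 called member values, 14 lost their call without rescaling, 12 without the filter on low values (adjusted p = 0.053 to 0.12, with more genes tested), 1 with median-of-ratios size factors, 1 with voom and 0 with a pseudocount of 1 or 0.01. Of 287 values not called, 10, 0, 1, 18 and 0 were called under these. With 1 library left out, 76 of 744 values lost their call and 24 of 1776 gained one. For the differences of effects 1 replicate number was left out in all 4 groups at a time, and 6 of 28 values lost their call and 1 of 280 gained one. The count of called members in the 3 CREB comparisons of WT mice, 2 in the report, was 0 without rescaling, 0 without the filter, 0 with the replicate block, and 1 with size factors, with voom and without the libraries low in ribosomal protein genes. In the CREB comparisons of Sleepy mice it was 2, against 5 without rescaling, 1 without the filter and 6 with voom. Between Sleepy and WT mice it was 0, against 2 with voom. Leaving out 1 library gave 1 to 2 for CREB in WT mice, 1 to 2 for CREB in Sleepy mice and 0 to 0 for Sleepy against WT. It gave 5 to 8 for HDAC4CA in WT mice, 14 to 16 for HDAC4CA in Sleepy mice, 7 to 10 between times, 10 to 15 for HDAC4CA against CREB and 32 to 33 between regions. Leaving out 1 replicate number gave 5 to 7 for the differences of effects. The cause of these changes was not tested.

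With the replicate number as a block, 8 of 84 calls were lost and 4 of 287 values gained. Lost outside WT cortex were Bdnf (adjusted p = 0.073) with HDAC4CA in WT thalamus, Ptprn with HDAC4CA in WT hypothalamus (0.066) and Sleepy hypothalamus at ZT12.5 (0.11), Nrn1 in Sleepy cortex at ZT0.5 (0.051), Ptprn with CREB in WT thalamus (0.13), Ptprn for HDAC4CA against CREB in WT hypothalamus (0.12), and Ptprn between times in Sleepy cortex with HDAC4CA (0.07). Outside WT cortex the libraries share only a number, since not every same-numbered pair deviated together.

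The number of all genes called differed by more than 1.5 times from the reported count in 46 of 53 comparisons under at least 1 setting, most often without the filter (37). With HDAC4CA in WT cortex 1034 genes were called, 579 without rescaling, 505 without the filter and 512 without the libraries low in ribosomal protein genes. In WT thalamus it was 1207, and 687 without the filter. In Sleepy cortex at ZT12.5 it was 1789, 1084 without rescaling and 1086 without the filter, and in Sleepy thalamus 2004, 1080 and 1237. In Sleepy cortex at ZT0.5 it was 712, 403 without rescaling, 228 without the filter, 1225 with voom and 394 with the block, and in thalamus 1483, 936 without the filter and 924 with the block. With CREB in WT thalamus it was 577, 268 without rescaling, 240 without the filter and 201 with the block, and in Sleepy thalamus 741, and 364 without the filter. Depth limits Inhba most, with as few as about 19 recovered reads in a library.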
